A study of Mus musculus with 6 samples.

Results

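The miR-130/miR-301 and miR-148/miR-152 families were measured in mouse blastocysts with 8 of the 750 miRNA assays on a pair of TaqMan array cards. The members were all assays named miR-130, miR-301, miR-148 or miR-152, on either card and with any letter or species prefix, and without the # sign that marks the minor arm of a precursor. The miR-130/miR-301 family had 4 assays, mmu-miR-130a, mmu-miR-130b, mmu-miR-301a and mmu-miR-301b. The miR-148/miR-152 family also had 4, mmu-miR-148a, mmu-miR-148b, mmu-miR-152 and the rat-named rno-miR-148b-5p. The last sat on card B and the other 7 on card A. The rule used names alone, though it was set with earlier results of these data known.

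The blastocysts were collected from the oviducts of superovulated and mated 5-week-old Kunming mice. Per the labels they were cultured in CZB medium, which the authors' methods name for the washes after warming. In the vitrified group, they passed through a pretreatment solution of 10% ethylene glycol and 10% DMSO for 30 s and were held in EDFS30 for 25 s in an open pulled straw, which was plunged into liquid nitrogen. Warming was in 0.5 M sucrose for 5 min. The fresh group was not frozen and had neither cryoprotectant. Each group had 3 pools, called V1, V2 and V3 for vitrified blastocysts and F1, F2 and F3 for fresh ones, and each pool combined many blastocysts. The sources name no cell line or transgene, and no drug beyond the superovulating hormones and the cryoprotectants. Whether RNA was extracted at the time when survival was scored, within a day of warming, is not given in the sources used here. In such pools, fewer cells of a type and less RNA per cell cannot be told apart.

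A miRNA pairs with messenger RNAs mainly through its seed, bases 2 to 8 counted from the 5′ end, and members of a family share this seed. The miR-148/miR-152 family is known for repressing the DNA methyltransferase Dnmt1, and the miR-130/miR-301 family for repressing members of the transforming growth factor-β pathway. The seed-carrying 3p strands are shown here because they show how close the families are, with the seed in capitals, as RefSeq gives them for mouse on GRCm38.p6. The positions of the mature strands on that build follow each sequence.
mmu-miR-130a-3p: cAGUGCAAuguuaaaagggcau, chr2:84741116-84741137, minus strand
mmu-miR-130b-3p: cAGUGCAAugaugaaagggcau, chr16:17124071-17124092, minus strand
mmu-miR-301a-3p: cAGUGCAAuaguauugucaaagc, chr11:87113054-87113076, plus strand
mmu-miR-148a-3p: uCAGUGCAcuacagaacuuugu, chr6:51269829-51269850, minus strand
mmu-miR-148b-3p: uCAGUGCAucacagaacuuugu, chr15:103285185-103285206, plus strand
mmu-miR-152-3p: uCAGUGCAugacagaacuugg, chr11:96850439-96850459, plus strand

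The remaining miR-130/miR-301 strand, miR-301b, is named only. The 3 miR-130/miR-301 sequences shown carried the seed AGUGCAA and the 3 miR-148/miR-152 sequences CAGUGCA. The second seed is the first moved by a single base, since bases 1 to 7 of miR-130 and miR-301 read the same as bases 2 to 8 of miR-148 and miR-152. Among the sequences shown, the strands of a family differ only past the seed. miR-301a is the most distant, differing from miR-130a at 10 and from miR-130b at 11 of the 22 positions compared. With positions counted from the 5′ end and the first-named strand's base written first, miR-130a and miR-130b differ at U11A and A13G, and miR-148a and miR-148b at C9U and U10C. miR-148b and miR-152 differ over their shared length at C10G and U20G. An assay may therefore detect a near relative to some extent, and how far it does was not tested.

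rno-miR-148b-5p reports the opposite arm of the miR-148b precursor and has another seed, which is why the mouse strand is shown apart.
mmu-miR-148b-5p: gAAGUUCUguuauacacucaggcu, chr15:103285148-103285171, plus strand

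The genes lie in different settings of the mouse genome. In the RefSeq annotation, Mir130b and Mir301b are each other's nearest miRNA gene, and both lie within the span of 2610318N02Rik. Mir301 lies within Ska2, Mir148b within Copz1 and Mir152 within Copz2, a pair of paralogs that encode coat protein subunits. Mir148a lies within the span of Gm38821 and Mir130a within that of no other listed gene.

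The measured quantity was the cycle threshold (Ct), the PCR cycle at which a well's fluorescence passed a set level, so that a Ct later by 1 cycle stands for about 2-fold less template. A well with no signal by cycle 40 was recorded as undetermined, and each pool gave 1 well per assay. ΔCt is the Ct minus the mean of the 4 wells of the small nuclear RNA U6 on the same card and pool. A log2 fold change is the mean −ΔCt of vitrified pools minus that of fresh pools, so a positive value means more in vitrified pools.

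Pools V1 and F1 stood apart from the other 4. V1 gave 218 determined miRNA assays and F1 gave 140, against 382 to 409 in V2, V3, F2 and F3. U6 was alike throughout, with card A means of 17.82 in V1, 17.08 in F1 and 16.59 to 17.10 elsewhere. The small nucleolar RNA snoRNA202, another of the controls on the cards, came at 25.90 in V1 and 27.47 in F1 on card A, but at 17.79 to 18.22 in the others. The miR-290 cluster marks early mouse embryos. Of its assays, miR-291a-3p, miR-293, miR-294 and miR-295 were determined in V2, V3, F2 and F3 and undetermined in V1 and F1. miR-291b-3p was also undetermined in V1 and F1, but was determined in only 2 of the other 4 pools. The wells of the cluster's remaining assays are not given here, so these values do not describe the whole cluster. Each comparison of the 3 pools per group is therefore given with and without the pools numbered 1, and the part of these pools' state in the results was not tested.

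Among the miR-130/miR-301 strands, miR-130a had raw Ct values of 36.11 in V1, 25.45 in V2 and 25.55 in V3. It was undetermined in F1 and came at 25.98 in F2 and 25.66 in F3. V1 was thus over 10 cycles later than its own group, while V2, V3, F2 and F3 spanned 0.53 cycles.

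miR-130b came at 34.54, 28.05 and 28.23 in V1, V2 and V3, was undetermined in F1, and came at 28.22 and 28.40 in F2 and F3. The 4 pools other than V1 and F1 spanned 0.35 cycles, the narrowest range of the 8 assays.

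miR-301a, which shares the seed of miR-130a and miR-130b, came at 35.26, 27.00 and 27.42 in V1, V2 and V3. It was undetermined in F1 and came at 26.50 in F2 and 27.06 in F3. miR-301b, whose gene neighbours that of miR-130b, had values of 33.74, 26.98 and 27.31 in vitrified pools, was undetermined in F1, and had 26.55 and 26.87 in F2 and F3. For both, V1 was the late pool and V2 and V3 lay within 1 cycle of F2 and F3.

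Among the miR-148/miR-152 strands, miR-148a came at 32.53, 25.07 and 25.35 in V1, V2 and V3, was undetermined in F1, and came at 25.68 and 25.09 in F2 and F3. miR-148b, its paralog with the same seed, was the latest of the 3p strands, at 39.46, 31.20 and 31.43 in vitrified pools and 30.84 and 30.83 in F2 and F3, with F1 undetermined. In V1 it was close to the limit of 40 cycles.

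miR-152 came at 32.24, 24.96 and 25.35 in V1, V2 and V3 and at 25.07 and 24.19 in F2 and F3, and was undetermined in F1. It was the earliest of the 8 in F3. The 7 assays of card A thus shared a pattern, with every vitrified pool determined, V1 late, and F1 undetermined.

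rno-miR-148b-5p was undetermined in V1 and F1. It came at 32.11 in V2, 29.96 in V3, 30.93 in F2 and 33.75 in F3. Its 4 values spanned 3.79 cycles, and the groups overlapped.

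**Figure D1:**
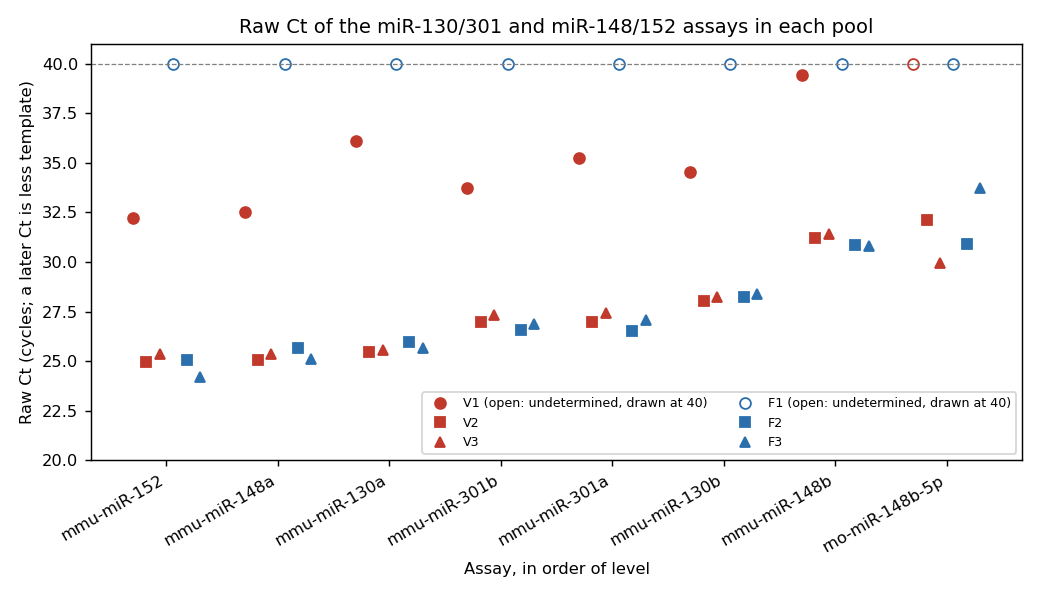
Raw Ct in cycles (vertical axis) of the 8 assays in each of the 3 vitrified (red) and 3 fresh (blue) pools, with the shape giving the pool number and open symbols at 40 standing for undetermined wells. V1 lies between 32.24 and 39.46 for the 7 assays of card A, F1 is undetermined for all 8, and the other 4 pools lie close together except for rno-miR-148b-5p.

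In the 4 pools numbered 2 and 3, the earliest members were miR-152 and miR-148a and the latest were both arms of miR-148b. Mean ΔCt was 7.99 ± 0.57 (SD, n = 4 pools) for miR-152, 8.39 ± 0.50 for miR-148a and 8.76 ± 0.45 for miR-130a. These were the most abundant by this measure, at ranks 80, 90 and 103 of the 326 assays determined in all 4 pools. Mean ΔCt was 10.02 ± 0.21 for miR-301b, 10.09 ± 0.26 for miR-301a and 11.32 ± 0.29 for miR-130b, at ranks 137, 139 and 174. The later end held miR-148b at 14.17 ± 0.25 and rno-miR-148b-5p at 14.60 ± 1.38, at ranks 250 and 263. Both families were therefore spread through the order, and the miR-148/miR-152 family held its top and its bottom. Assays differ in efficiency, so a ΔCt difference between assays is not a ratio of molecules.

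Most neighbours kept this order in each of V2, V3, F2 and F3. V1 departed from it, with miR-130a at a later raw Ct than miR-301b, miR-130b and miR-301a, and miR-301a later than miR-130b. miR-152 came before miR-148a in 4 of 4 pools, but the gap of 0.41 ± 0.42 cycles (SD, n = 4) did not exceed its spread. miR-148a came before miR-130a by 0.36 ± 0.16 cycles. miR-130a came before miR-301b by 1.27 ± 0.52 cycles, also in 4 of 4 pools. miR-301b and miR-301a could not be ordered, with a gap of 0.07 ± 0.10 cycles that held its sign in 3 of 4. miR-301a came before miR-130b by 1.23 ± 0.39 cycles, and miR-130b before miR-148b by 2.85 ± 0.38 cycles, the widest gap. For miR-148b and for miR-130b, the arms sat on different cards, so the gaps between them are in ΔCt. The arms of the miR-148b precursor were 0.43 ± 1.61 cycles apart, with 2 pools in each order. For miR-130b, the minor strand (mmu-miR-130b#) came 3.63 ± 0.97 cycles after the major strand in those pools and 1.72 cycles after it in V1. The assay for the minor strand of miR-148a (hsa-miR-148a#) was undetermined in every pool.

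The question behind the comparison of vitrified with fresh pools is whether vitrification changes the miRNAs of the blastocyst. With all pools, the 7 card A members read lower in vitrified pools, with log2 fold changes from −2.69 for miR-130a to −1.44 for miR-130b, but none passed the test. Since F1 had no value, these figures compare V1, V2 and V3 with F2 and F3. Among all 335 assays tested with limma, 0 (0%) had an adjusted p under 0.05 and 1 (0.299%) had an unadjusted p under 0.05. The adjusted p was 0.998 for each of the 8 members. A fold change below 0 was found for 7 of 8 members and for 51.9% of all assays tested. The median was −2.23 over the members and −0.05 over all assays.

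The late pool V1 carried these values. miR-130a had a ΔCt of 11.74 ± 5.67 (SD, n = 3) in vitrified pools and 9.05 ± 0.48 (n = 2) in fresh pools, with a log2 fold change of −2.69 and a standard error of 3.32. For miR-152, ΔCt was 10.22 ± 3.65 against 7.86 ± 0.88, and the log2 fold change was −2.36 with a standard error of 2.27. For miR-148b, the values were 16.73 ± 4.26 and 14.06 ± 0.27, and the change was −2.67 with a standard error of 2.56. The vitrified and fresh values overlapped for each of the 8 members. In 2-sided exact permutation tests, p was 0.4 for miR-148b, 0.6 for miR-152, miR-301a and miR-301b, and 1.0 for miR-130a, miR-130b and miR-148a, where 3 pools against 2 allow no p below 0.1.

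The pattern of determined wells put V1 into the vitrified mean and left F1 out of the fresh mean. The next count selects assays by that pattern, the card A members among them, so it is a description and not a test. Of the card A assays tested that were determined in V1 and undetermined in F1, 51 of 51 (100%) had a fold change below 0, with a median of −2.23. The median of the 7 members on card A was −2.36.

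Without the pools numbered 1, the members lay near 0. The log2 fold changes over V2 and V3 against F2 and F3 ranged from −0.26 for miR-152 to 0.58 for miR-130a among the 7 assays of card A. Fitted with limma on these 4 pools, 0 of 326 assays (0%) had an adjusted p under 0.05, and 16 (4.91%) had an unadjusted p under 0.05, none of them a member. Adjusted p lay between 0.912 and 0.937 for the members. Above 0 were 4 of 8 members and 49.4% of all assays, and the medians were 0.13 and −0.02.

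In these pools, miR-130a had a ΔCt of 8.47 ± 0.17 (SD, n = 2) in vitrified and 9.05 ± 0.48 (n = 2) in fresh pools, and its log2 fold change was 0.58 with a standard error of 0.60. miR-130b had 11.10 ± 0.23 and 11.54 ± 0.14, a change of 0.43 with a standard error of 0.56. For both, the vitrified and fresh pools did not overlap. This held for 2 of 8 members, against 18.1% of the 326 assays that were higher in vitrified pools without overlap and 28.8% without overlap in either direction. The exact permutation p was 0.333 for each, the smallest that 2 pools against 2 allow.

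The other members overlapped between the groups in those pools. miR-148a changed by 0.43 with a standard error of 0.64, miR-148b by −0.21 with 0.58, and miR-152 by −0.26 with 0.70. miR-301a and miR-301b both stood at −0.17, with standard errors of 0.58 and 0.57. rno-miR-148b-5p stood at 1.37 with a standard error of 1.03, the largest estimate and the least precise. Each of these 6 values was smaller than 2 times its standard error.

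**Figure D2:**
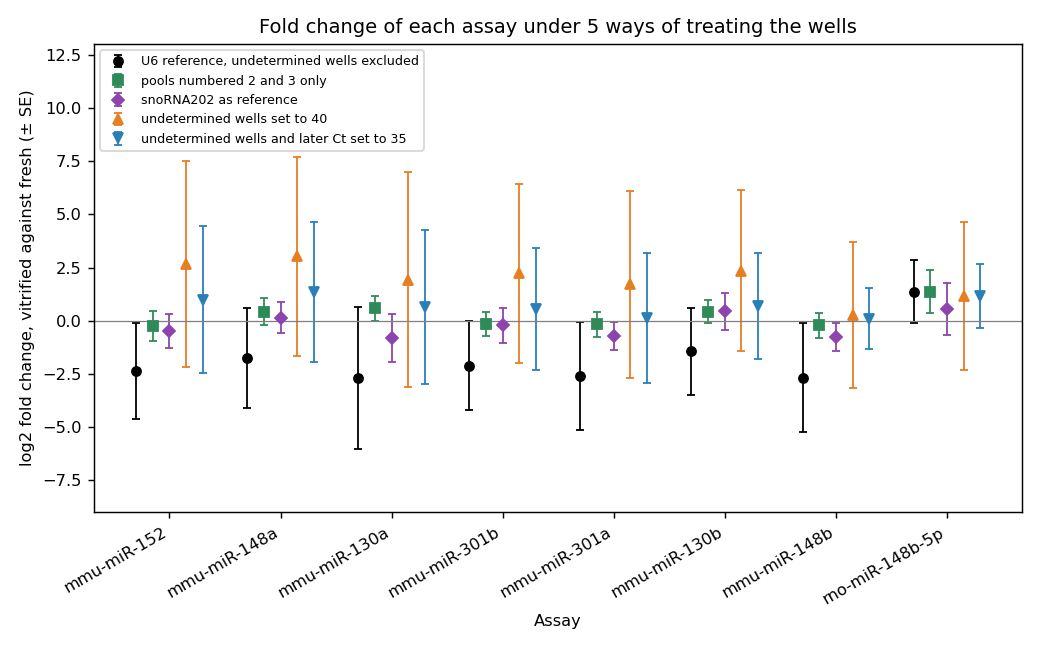
Log2 fold change of vitrified against fresh pools (vertical axis, bars are ± 1 standard error from limma) of each assay under 5 treatments of the wells, with positive values higher in vitrified pools. With U6 as the reference and undetermined wells left out, the 7 assays of card A lie between −2.69 and −1.44. They lie between −0.80 and 0.45 with snoRNA202 as the reference and between −0.26 and 0.58 in the pools numbered 2 and 3. With undetermined wells set to 40 they lie between 0.28 and 3.02, and with a ceiling of 35 cycles between 0.10 and 1.36.

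The direction differed with the treatment of undetermined wells and, for some members, with the reference and the pools used. With undetermined wells set to 40 cycles, F1 entered the comparison as the lowest pool, and the 7 card A members had positive fold changes from 0.28 for miR-148b to 3.02 for miR-148a. With a ceiling of 35 cycles, which also changed determined V1 wells later than that, they ran from 0.10 for miR-148b to 1.36 for miR-148a. With snoRNA202 as the reference, which itself came late in V1, the change was 0.45 for miR-130b and 0.14 for miR-148a, and below 0 for the other 5. No member passed the adjusted threshold under any alternative in which it could be fitted.

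The delay of V1 relative to V2 and V3 differed between the members. It was 10.61 cycles for miR-130a, 8.15 for miR-148b and 8.05 for miR-301a. It was 7.32 cycles for miR-148a, 7.09 for miR-152, 6.60 for miR-301b and 6.40 for miR-130b. Over the 130 card A assays determined in V1, V2 and V3, the median delay was 5.65 cycles, with quartiles of 3.17 and 7.21. The median of the 7 members was 7.32. For miR-130a, 3 of the 130 assays had a longer delay, while for miR-130b there were 50. Of the 196 card A assays determined in V2, V3, F2 and F3, 66.3% were determined in V1. Assays undetermined in V1 have no delay here, so the median, quartiles and counts hold only among assays with a signal there. How the members' delays compare with those of the assays left out was not tested. The control snoRNA202 was delayed by 8.04 cycles and U6 by 0.78 on the same card, against 6.40 to 10.61 for the members.

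**Figure D3:**
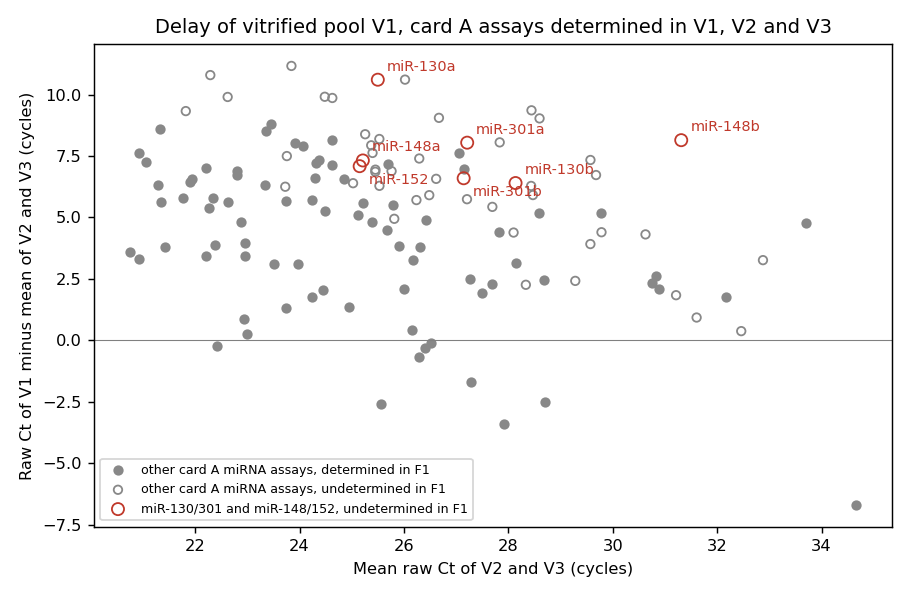
Raw Ct of V1 minus the mean of V2 and V3 (vertical axis, cycles) against the mean raw Ct of V2 and V3 (horizontal axis, cycles) for the 130 card A assays determined in these 3 pools, with open symbols for assays undetermined in F1. The 7 members (red) are all open and lie at delays of 6.40 to 10.61 cycles, miR-130a the highest among them.

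The members shared the combination of a signal in V1 and none in F1 with many other assays. Of the 196 card A assays determined in V2, V3, F2 and F3, 50 (25.5%) were determined in V1 and undetermined in F1, and 7 of these were the members. In V1, 66.3% of the 196 were determined, and in F1, 58.7% were undetermined. The reverse combination was found for 1 assay (0.51%).

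The pattern differed with level. Of the 101 such assays whose mean Ct in F2 and F3 lay within the range of the members, from 24.63 to 30.83, 72.3% were undetermined in F1 and 38.6% were determined in V1 and undetermined in F1. Of the 59 assays earlier than every member, 18.6% were undetermined in F1. The strand miR-152 would have had to be delayed in F1 by at least 15.37 cycles relative to F2 and F3 to pass cycle 40, miR-148a by 14.62 and miR-130a by 14.18. Over the 85 card A assays determined in F1, F2 and F3, the median delay of F1 was 6.16 cycles, and that of snoRNA202 was 9.34. Assays that F1 delayed past cycle 40 are not in this median, so it is no measure of the delay of assays undetermined there. For miR-148b, which is later in every pool, the delay needed was 9.17 cycles.

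Differences between members within a pool need no reference RNA. The Ct of miR-130b minus that of its neighbour miR-301b was 0.80, 1.07 and 0.92 in V1, V2 and V3 and 1.67 and 1.52 in F2 and F3. Vitrified minus fresh was −0.67 cycles with V1 and −0.60 without it, and the groups did not overlap. The Ct of miR-148a minus that of miR-152 was 0.29, 0.11 and 0.01 against 0.61 and 0.90, also without overlap, and vitrified minus fresh was −0.61 with V1 and −0.69 without it. For miR-148a minus miR-148b, the values were −6.92, −6.12 and −6.07 against −5.16 and −5.75, again without overlap, and vitrified minus fresh was −0.92 with V1 and −0.65 without it.

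The other 4 differences examined overlapped. The Ct of miR-130a minus that of miR-130b was −2.60, −2.68, −2.24 and −2.73 in V2, V3, F2 and F3, but 1.57 in V1, where miR-130a came after miR-130b. Vitrified minus fresh for this pair was 1.25 with V1 and −0.15 without it. miR-301a minus miR-301b was 1.52 in V1 and between −0.05 and 0.19 in V2, V3, F2 and F3, and vitrified minus fresh was 0.48 with V1 and 0.00 without it. miR-148b minus miR-152 was 7.22, 6.24 and 6.08 against 5.77 and 6.64, with vitrified minus fresh at 0.31 with V1 and −0.05 without it. The mean Ct of the miR-130/miR-301 strands minus that of the miR-148/miR-152 3p strands was 0.17, −0.21 and −0.25 in vitrified pools and −0.39 and 0.30 in fresh pools, and these overlapped. Vitrified minus fresh was −0.05 with V1 and −0.18 without it. Over all pairs of card A assays determined in these 5 pools, 9.67% did not overlap between the groups, against 3 of the 7 differences here. That share is for pairs of single assays, while the last of the 7 is a difference of family means. miR-148a minus miR-148b used a miR-148b well at 39.46 in V1, close to the limit. Whether 3 of 7 exceeds the share was not tested. These 7 share members, so they are not independent.

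**Figure D4:**
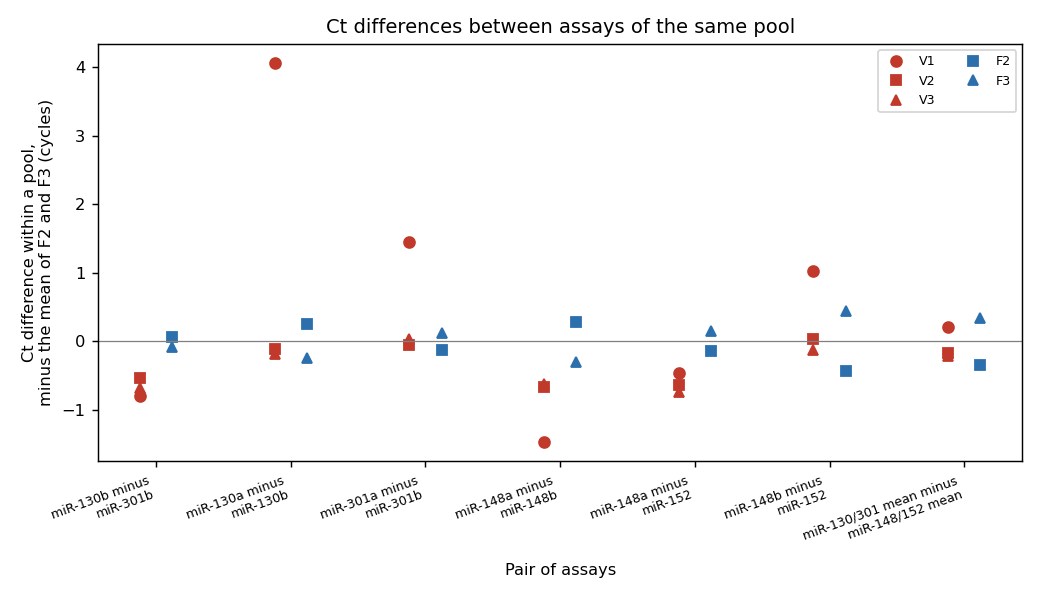
Difference in Ct between a pair of assays, or between the family means, in the same pool. The mean of that difference in F2 and F3 is subtracted (vertical axis, cycles), and 7 differences are drawn in vitrified (red) and fresh (blue) pools. Vitrified pools lie below F2 and F3 for miR-130b minus miR-301b, miR-148a minus miR-148b and miR-148a minus miR-152, and V1 stands high for miR-130a minus miR-130b.

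A strand outside the naming rule shares the miR-130/miR-301 seed, and it is shown for that reason.
mmu-miR-721: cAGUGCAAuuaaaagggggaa, chr5:136375777-136375797, minus strand
It came at 31.99 and 31.71 in V2 and V3 and at 32.36 and 33.72 in F2 and F3, and was undetermined in V1 and F1. Its log2 fold change was 1.25 with a standard error of 0.72 in the pools numbered 2 and 3, and its adjusted p from limma was 0.867.

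The bases AGUGC, searched on the mature strand within bases 1 to 8, are shared by both families and by other miRNAs known from early embryos. Of the 532 mouse-named assays without a # sign, 412 matched a RefSeq mature name, with either arm accepted where the card gave none. For 24 of these, an accepted arm held the bases. Whether that arm is the one the assay measures was not checked, for example for miR-350, counted through its 5p arm. miR-301b was not among the 412 and was not searched. The 24 were 6 members and 18 others, among them the miR-17, miR-290 and miR-302 families. Of the 18 others, 13 were determined in V2, V3, F2 and F3, and 7 of the 13 had a fold change above 0 there, with a median of 0.10. On card A there were 11 of these 13. In V1, 6 of the 11 were determined, all with the seed AAAGUGC of the miR-17 family, and 4 were determined in F1 as well. Only miR-20a and miR-93 of the 11 had the members' combination of a signal in V1 and none in F1.

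The assays closest to the members in their course over V1, V2, V3, F2 and F3 were miR-652, miR-196b, miR-192, miR-19a and rno-miR-196c, among 188 candidates. Likeness was the root mean square difference between the centred −ΔCt of an assay and the mean of the 7 members, which was 0.07 for miR-652, 0.13 for miR-196b, 0.17 for miR-192, 0.18 for miR-19a and 0.21 for rno-miR-196c. The members themselves lay at 0.26 to 1.07 from their mean, and 79 candidates lay within 1.07, so the course was not particular to the families. The 5 differed in F1, where miR-652 was determined at 27.13 and rno-miR-196c at 35.21, and miR-196b, miR-192 and miR-19a were undetermined like the members. In V1, miR-652 came at 34.69, and in the other 4 pools at 26.73 to 27.14.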

How the data were processed

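Expression of miRNAs was measured by real-time PCR on TaqMan Rodent MicroRNA A and B cards (384 wells each, 768 in all) in 3 vitrified and 3 fresh pools. From each pool, 30 ng of total RNA went into reverse transcription, and the authors pre-amplified the product before 40 cycles of PCR. They deposited raw Ct values, without normalization. A second deposited table holds the authors' own fold changes and was not used. RNA was extracted from each pool on its own. Whether the pools of a group came from different mice or days is not given in the sources used here, and p-values measure the spread between these pools.

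Following the authors' methods, wells undetermined or at 40 or more were excluded, and U6 was the reference. Assays determined in at least 2 pools per group entered a linear model (limma 3.58.1, run in R 4.3.3; lmFit, then eBayes), with Benjamini-Hochberg adjustment over all assays tested. Single values were compared by 2-sided exact permutation tests. Tables were read with pandas 2.3.3 and numpy 2.4.6 under Python 3.11.15, and scipy 1.17.1 gave the exact tests. The fit was tested on simulated data with no outlying pool and a smaller spread than the card A members had in vitrified pools. That test therefore does not show what could be detected for these members. The members, lists and comparisons were chosen with earlier results of these data known. The rule for named assays was all members, the related assays with their number or seed, and the 5 assays nearest in course. That course and the family means were to be taken over 6 pools, but no member was determined in all 6, so 5 pools were used.

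Pools of the same number deviated together from their group means, with correlations of 0.80, 0.78 and 0.67 for numbers 1, 2 and 3 over 122 assays determined in every pool. The numbers come from the sample labels and were treated as pairs in an alternative fit. The 3 deviations of a group sum to 0, so V1 and F1 weigh on each correlation. Alternatives were another reference, global mean, no reference, other treatments of late wells, a replicate block, a variance trend, an unmoderated test, the pools numbered 2 and 3, and leaving out each pool. Array wells give no read depth, and 1 well per pool limits the precision.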

Additional observations from a re-analysis of the deposited data

How the results depend on the processing

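No assay had an adjusted p under 0.05 in limma or under any of the 18 alternatives, while those with an unadjusted p under 0.05 numbered 1 with all pools and 0 to 24 under the alternatives. Of 136 alternative values for the 8 members, 103 kept their direction and 33 did not, with adjusted p from 0.83 to 1.0. With undetermined wells set to 40, the log2 fold change was 1.93 for miR-130a, 2.35 for miR-130b, 3.02 for miR-148a, 0.28 for miR-148b, 2.66 for miR-152, 1.71 for miR-301a and 2.22 for miR-301b. With a ceiling of 35 cycles, it was 0.64, 0.69, 1.36, 0.10, 0.99, 0.13 and 0.55 in the same order. With a limit of 35 cycles, miR-130a was at 0.58. With snoRNA202, miR-130b was at 0.45 and miR-148a at 0.14.

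With the replicate block, which drops the unpaired V1, miR-130a was at 0.58, miR-130b at 0.43 and miR-148a at 0.43, as in the pools numbered 2 and 3 and without V1. The block left 4 assays with an unadjusted p under 0.05, and block with global mean 24. With the replicate block and the global mean, the 7 changes were 0.92, 0.77, 0.77, 0.12, 0.07, 0.16 and 0.17 for miR-130a, miR-130b, miR-148a, miR-148b, miR-152, miR-301a and miR-301b.

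Leaving out each pool in turn moved miR-130a from −4.39 to 0.58, miR-130b from −2.46 to 0.43, miR-148a from −2.94 to 0.43, miR-148b from −3.99 to −0.21, miR-152 from −3.54 to −0.26, miR-301a from −3.94 to −0.17, miR-301b from −3.19 to −0.17 and rno-miR-148b-5p from 0.07 to 2.67. The highest value of each card A member was the one without V1. The family difference ran from −0.39 without F2 to 0.29 without F3. Within pools, setting undetermined wells to 40 moved miR-130b minus miR-301b to −0.13 cycles, miR-148a minus miR-148b to −2.74, miR-148a minus miR-152 to −0.36 and miR-148b minus miR-152 to 2.38, since F1 then adds a difference of 0. No member could be fitted among assays determined in all 6 pools. Beyond that construction, the cause was not tested.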
